A study of Rattus norvegicus with 9 samples.

Results

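Macrophages and microglia that have taken up dead cells and myelin switch on a shared set of genes for recognising, engulfing and digesting debris and for storing its lipid. The genes described here are a curated list of 37 such phagocytic and lipid-laden macrophage genes, chosen by symbol, of which 36 had a row among the 30507 gene rows of the count table. The list was chosen with earlier results of these data known. Counts of members set beside shares of all genes therefore describe the list and do not test it. For a symbol with more than 1 row, the row with the highest total count was taken. The symbol Cd36 (a fatty acid and oxidised lipoprotein receptor) was not analysed here.

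Spinal cord RNA was sequenced at 35 days post-injury (dpi) in 9 libraries, 3 in each of 3 groups of female wild-type Sprague-Dawley rats that were 8 weeks old at the start, and all libraries carry the label of 1 batch. Sham rats, which the labels describe as normal and without treatment, had a laminectomy only according to the study's methods. SCI rats had a contusion of 150 kdyn at thoracic level 10 and, in place of an electrode, a plug fixed to the neck. SCI + SCS rats had the same contusion and an epidural electrode that gave high-frequency spinal cord stimulation (HF-SCS) for 2 h a day from 1 dpi (10 kHz; pulse width, 30 µs; current, 0.12 mA). A group with an electrode but no current was not sequenced, according to the study's methods. In these data the effect of the electrode and that of the current therefore cannot be told apart. The study reported no significant difference between that group and the SCI group in pain tests, lesion histology or oxidative stress, which are not RNA levels. The RNA came from whole pieces of cord around the injury, so fewer cells of a type and less RNA per cell cannot be told apart either. The labels do not say whether each library came from a separate rat. The study's methods explain that the group with an electrode but no current held fewer rats because it was not sequenced. That reads as a separate rat for each library, though it is not stated outright. The p-values measure the spread between these libraries.

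After a contusion, resident microglia and blood-borne monocytes gather in the lesion and clear myelin and dying cells. Receptors such as TREM2, MERTK, Fc receptors and scavenger receptors bind the debris, lysosomal proteins break it down, and the cholesterol and fatty acids released are stored in lipid droplets or passed on. Cells loaded with myelin lipid are often called foamy macrophages, and GPNMB, galectin-3, CD68 and osteopontin are among the proteins by which they are recognised.

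Promoter sequences are shown for 4 members that stand among those with the largest fold changes or that share motifs, to show the sequence from which they are transcribed. RefSeq promoters of the GRCr8 build (250 bases before to 50 bases after the start) matched 26 of the 37 symbols, and 11 had none. Capitals mark matches on either strand to any of 5 sequences, chosen with the matches of a wider search known: TGAGTCA (AP-1), GAGGAAGT (PU.1), TCACGTGA and TCACATGA (MiT/TFE factors such as MITF and TFEB) and TTGCGCAA (C/EBP), none of which overlapped another in the promoters shown. Each sequence is written 5′ to 3′ on the strand of its gene, and lies at chr4:79340878-79341177 (+) for Gpnmb, chr7:1921894-1922193 (+) for Cd63, chr10:54882392-54882691 (-) for Cd68 and chr1:78853203-78853502 (-) for Lilrb4.
Gpnmb: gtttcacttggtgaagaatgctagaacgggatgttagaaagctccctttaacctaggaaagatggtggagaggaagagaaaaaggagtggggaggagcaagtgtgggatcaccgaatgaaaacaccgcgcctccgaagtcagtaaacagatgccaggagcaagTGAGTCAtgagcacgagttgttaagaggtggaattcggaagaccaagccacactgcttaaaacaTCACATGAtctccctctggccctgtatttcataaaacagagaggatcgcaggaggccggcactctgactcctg
Cd63: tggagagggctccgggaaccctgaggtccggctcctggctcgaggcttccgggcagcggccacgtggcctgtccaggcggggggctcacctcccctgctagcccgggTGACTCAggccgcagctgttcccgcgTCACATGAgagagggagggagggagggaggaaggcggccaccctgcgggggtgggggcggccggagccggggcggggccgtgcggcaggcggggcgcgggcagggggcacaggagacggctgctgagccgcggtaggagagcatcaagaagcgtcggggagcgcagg
Cd68: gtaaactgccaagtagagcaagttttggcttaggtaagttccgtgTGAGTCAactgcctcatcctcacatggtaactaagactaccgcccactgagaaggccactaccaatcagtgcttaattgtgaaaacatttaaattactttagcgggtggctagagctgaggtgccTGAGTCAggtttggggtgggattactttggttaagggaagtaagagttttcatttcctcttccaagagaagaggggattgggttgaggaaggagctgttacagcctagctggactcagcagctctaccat
Lilrb4: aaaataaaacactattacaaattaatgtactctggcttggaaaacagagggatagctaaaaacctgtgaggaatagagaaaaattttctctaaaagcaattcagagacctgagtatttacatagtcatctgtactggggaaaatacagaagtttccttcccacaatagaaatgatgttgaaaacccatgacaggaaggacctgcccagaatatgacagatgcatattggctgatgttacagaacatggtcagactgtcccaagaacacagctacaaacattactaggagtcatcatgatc

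The AP-1 sequence was found in 5 of the 26 member promoters (Pla2g7, Cd68, Cd63, Gpnmb and Anxa2), and in 4.63% of all 33469 promoters. In Gpnmb it began at base -87 from the start, in Cd63 at -143 on the opposite strand, and in Cd68 at both -205 and -80. TCACATGA was found in Gpnmb, at -23, and in Cd63, at -117, and in 1.16% of all promoters. GAGGAAGT was found in Fcgr3a and Nceh1, and in 2.42% of all promoters. No member promoter held TCACGTGA or TTGCGCAA, which 0.777% and 0.17% of all promoters held. Members were counted by gene, with a match in any promoter of the gene, while the percentages are of single promoters. The 2 are not like shares, and no enrichment was tested. A match describes letters in these windows and was not tested as a binding site.

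Library totals ran from 62844376 to 88358570 counts, and levels below are counts scaled to library size (CPM) after TMM normalization unless FPKM, which also divides by gene length, is named. Neuronal genes summed to 3706 to 8014 CPM in Sham, 462 to 1544 CPM in SCI and 1479 to 2605 CPM in SCI + SCS libraries. The summed level of 6 general myeloid genes (Ptprc, Itgb2, Spi1, Laptm5, Cd53 and Csf1r) was 173 to 284 CPM in Sham, 697 to 907 CPM in SCI and 624 to 807 CPM in SCI + SCS libraries. Homeostatic microglial genes ran from 195 to 292 CPM in Sham, 343 to 399 CPM in SCI and 315 to 364 CPM in SCI + SCS libraries. Without Olfml3, which was at a mean of 22.7, 129 and 68.2 CPM in the 3 groups, the other 7 summed to 184 to 256 CPM in Sham, 185 to 301 CPM in SCI and 252 to 310 CPM in SCI + SCS libraries, which overlapped. Skeletal muscle genes (8 of 13 listed had a row) summed to 3670, 11.2 and 1034 CPM in the SCI libraries against 14.0 to 15.03 CPM in the SCI + SCS libraries. Fibroblast genes were at 3299 to 4945 CPM in SCI and 2031 to 3457 CPM in SCI + SCS libraries, and adipocyte genes at 86.9 to 115 CPM and 26.6 to 42.8 CPM. Nearly all of the adipocyte sum was Cfd (mean of 73.8 CPM in SCI and 23.7 CPM in SCI + SCS) and Fabp4, while Plin1, Adipoq, Cidec and Retn were below 0.4 CPM in every library and Lep was at 0. T cell genes were at 20.02 to 22.1 CPM in SCI and 7.16 to 13.3 CPM in SCI + SCS libraries. The part of these tissues in the results below was not tested, other than by leaving libraries out as stated.

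**Figure D1:**
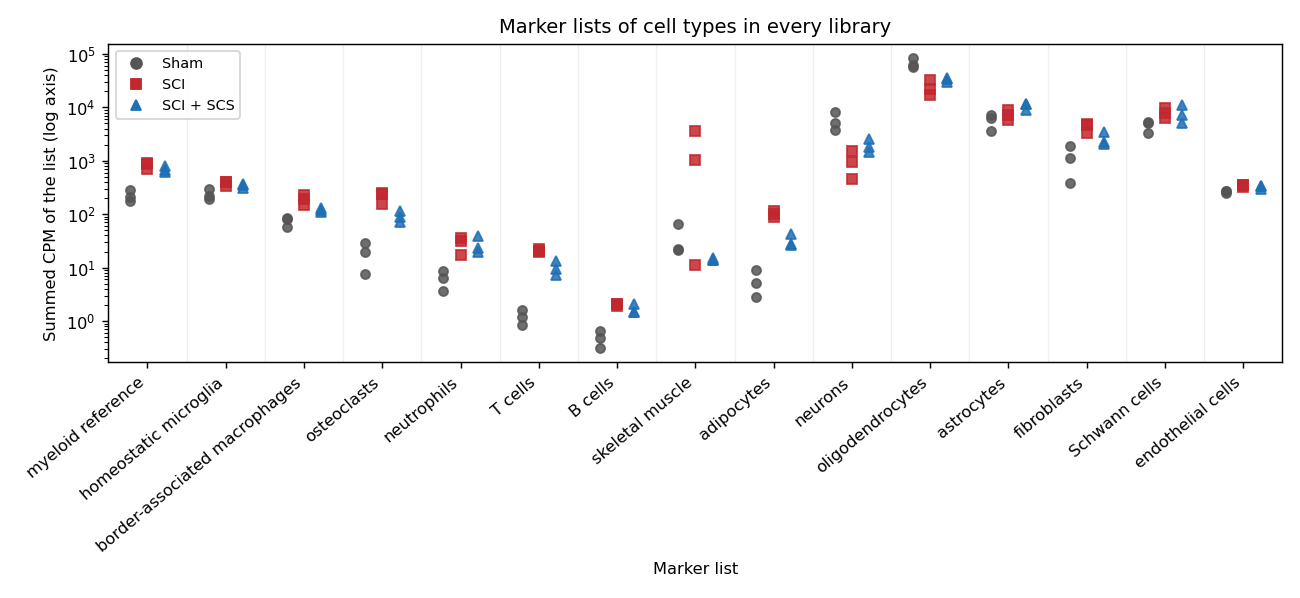
Summed CPM (log axis) of 15 marker lists in each of the 9 libraries, with grey circles for Sham, red squares for SCI and blue triangles for SCI + SCS. Myeloid lists are higher in both injured groups than in Sham, though the homeostatic microglial list overlaps between groups once Olfml3 is left out. Muscle genes are at 3670 and 1034 CPM in 2 SCI libraries and at 65.8 CPM or below in the other 7.

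Of the 36 members with a row, 35 had enough counts to be tested. A gene was called when its fold change exceeded 2 (|log2FC| over 1) at a Benjamini-Hochberg adjusted p under 0.05 over all genes in edgeR's quasi-likelihood test. Marco, a scavenger receptor for bacteria and particles, was not tested, since it had 7, 0 and 4 counts in the Sham libraries, 0 in each SCI library and 4, 0 and 0 in the SCI + SCS libraries.

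Compared with the Sham group, the SCI group had higher levels of most of the list at 35 dpi. In all, 26 of 35 members were called higher, where 13.4% of all genes tested were, and 1 (Nceh1) was called lower, where 13.6% of all genes were. The median log2FC was 2.09 over the members and 0.015 over all genes tested. In 30 members every SCI library was above every Sham library, where 32.5% of all genes showed this. The members not called were Mertk, Fcer1g, Cd163, Pla2g7, Cd9, Spp1, Igf1 and Arg1. Taking the listed muscle and adipocyte genes out before the fit left the same 27 calls. This cannot take RNA of those tissues out of the members' own counts, so it does not show their part. With SCI replicates 1 and 3, which held the muscle signal, both left out, an alternative added after seeing the data in which the lone SCI library is assumed to vary like the Sham libraries, 10 members were called (Trem2, Tyrobp, Fcgr2b, Plin2, Fabp5, Tspo, Cd68, Cd63, Gpnmb and Plau), 17 lost their call and the median log2FC was 2.09. The share of all genes called in that fit is not given here, so its count of members has no background. With a single library left out, the call of Fcgr3a was lost without any 1 of Sham replicates 1 and 2 or the SCI replicates, that of Ms4a7 without Sham replicate 2, SCI replicate 2 or SCI replicate 3, and that of Mrc1 without SCI replicate 3. Without Sham replicate 3, the fold change of 6 members in SCI against Sham rose by over 1.5 times, to a log2FC of 7.89 in Lilrb4, 6.49 in Cd68, 5.84 in Clec7a, 4.56 in Ms4a7, 3.83 in Lyz2 and 2.18 in Fcgr3a.

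The SCI + SCS group also stood above the Sham group. There 21 of 35 members were called higher, where 6.28% of all genes were, and none was called lower, where 5.44% of all genes were (Nceh1 alone was lower at an unadjusted p under 0.05, against 23.1% of all genes, and no member was called lower by DESeq2 or limma). The median log2FC was 1.502 over the members and 0.0077 over all genes. In 30 members the libraries did not overlap and those of SCI + SCS were higher, where 27% of all genes showed this. Without Sham replicate 3 the log2FC was 6.51 in Lilrb4, 5.84 in Cd68, 5.40 in Clec7a and 3.03 in Lyz2. The call of Cst7 was lost without any 1 of the 6 libraries, that of Stab1 without any but Sham replicate 3, and those of Lyz2 and Fcgr1a without Sham replicate 2 or any 1 of the SCI + SCS replicates. DESeq2 called 24 members, among them Mrc1, Msr1 and Igf1. With the replicate number as a block, 12 members were called. Those lost were Lyz2, Cst7, Plau, Stab1, Axl, Cd14, Lilrb4, Fcgr1a and Capg. The shares of all genes called by DESeq2 and with the block are not given here, so these counts have no background.

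Between the injured groups, most members were lower with HF-SCS, and none reached the call threshold in edgeR. Of 35 members, 31 had a log2FC below 0 (50.7% of all genes tested did), with a median of -0.52 against -0.0055 over all genes. At an unadjusted p under 0.05, 23 members were lower, against 10.9% of all genes, and 1 was higher, against 13.3%. In 23 members every SCI + SCS library was below every SCI library, against 13.9% of all genes. The smallest adjusted p of a member was 0.0719 in edgeR's quasi-likelihood test, and 15 members were lower at an adjusted p under 0.1, against 2.6% of all genes. Over all genes, 0.00566% were called higher and 0% lower. DESeq2 called 4 members lower (Cst7, Lilrb4, Ms4a7 and Msr1) and limma on FPKM called 1 (Cst7). The shares of all genes called by DESeq2 and limma are not given here, so these counts have no background. The same 4 members were more than 2-fold lower in edgeR at an unadjusted p under 0.05, against 2.56% of all genes. With all 9 libraries in 1 fit, 11 members rather than 23 were lower at an unadjusted p under 0.05, against 8.36% of all genes. With SCI replicates 1 and 3 left out, 31 members were again below 0 (50.9% of all genes) and 23 were lower at an unadjusted p under 0.05 (7.2% of all genes), in a fit where the lone SCI library is assumed to vary like the SCI + SCS libraries. The library kept, SCI replicate 2, was the highest of its group in 15 of 35 members and the lowest in 4. With 3 libraries a group, an exact permutation test of a single gene cannot give a p under 0.1.

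**Figure D2:**
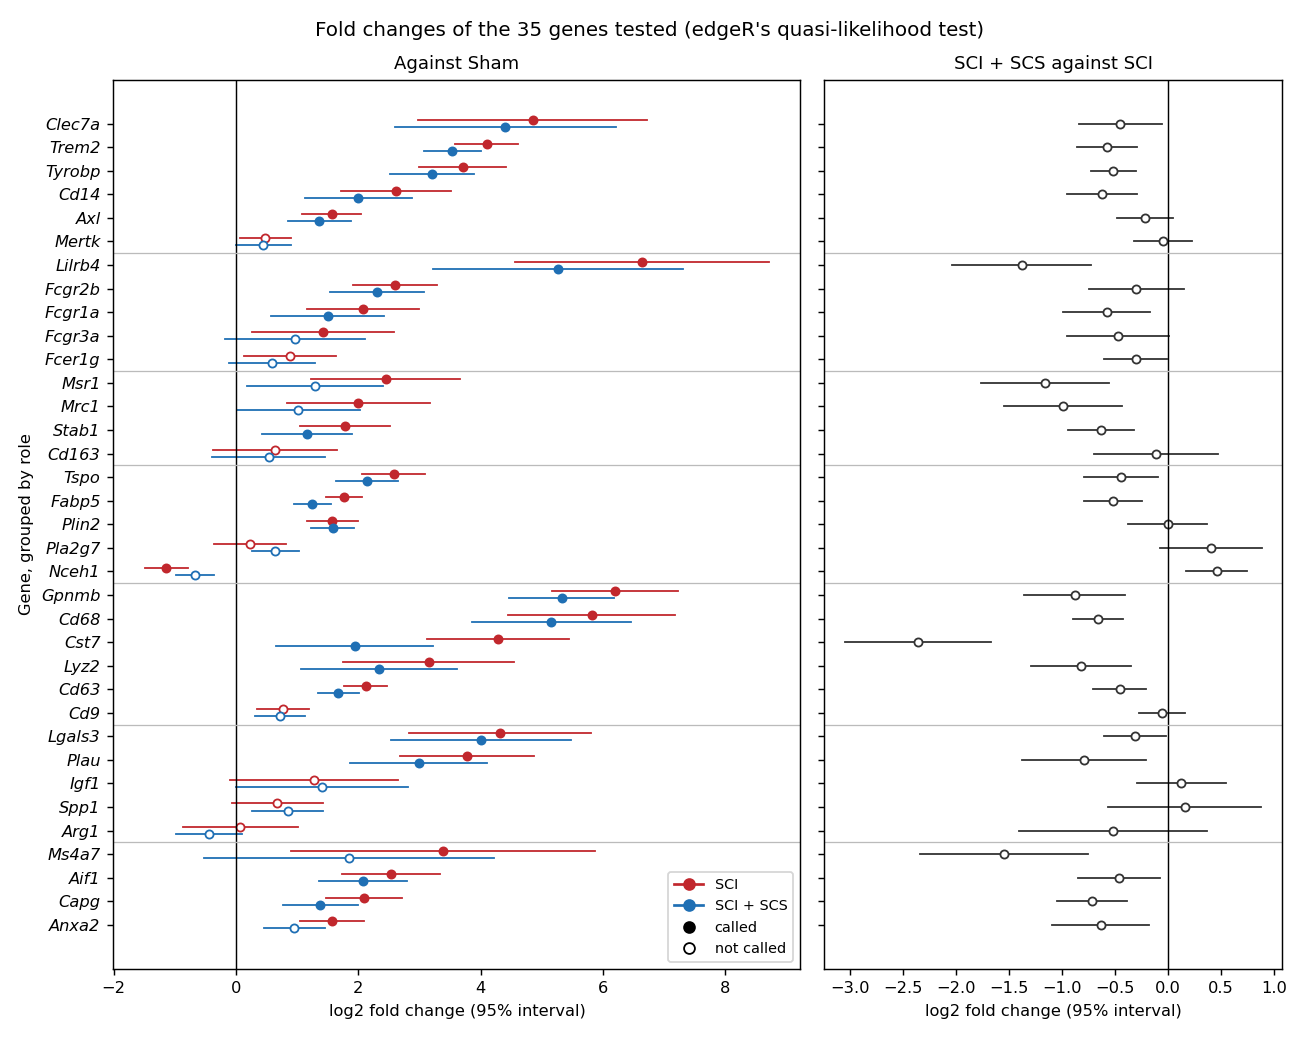
Log2 fold changes with 95% intervals of the 35 members tested, grouped by role, for SCI (red) and SCI + SCS (blue) against Sham on the left and for SCI + SCS against SCI on the right. Filled points were called, and on the right no point is filled while 31 of 35 lie below 0.

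Group means ran in the order Sham, SCI + SCS, SCI from low to high in 30 of the 36 members with a row, and in the opposite order in 2. These 2 were Nceh1 and Marco, which had too few counts to be tested. The share of all genes with these orders was not counted. The other 4 (Pla2g7, Spp1, Igf1 and Arg1) followed neither. Summed over the 35 members tested, the list held 0.184% to 0.245% of the counts of a Sham library, 0.762% to 1.002% of those of an SCI library and 0.654% to 0.680% of those of an SCI + SCS library. The Sham libraries were not alike, since replicate 1 was the lowest of its group in 30 of the 35 members and replicate 3 the highest in 27.

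On the FPKM scale, which allows levels of different genes to be compared, the most abundant members in the Sham cord were Cd9 (291 ± 69.1 FPKM, SD, n = 3), Cd63 (138 ± 23.9), Spp1 (130 ± 28.8), Pla2g7 (120 ± 25.8) and Fabp5 (109 ± 13.4). The spreads of Cd63, Spp1, Pla2g7 and Fabp5 overlapped. In the SCI cord the order was Lyz2 (804 ± 266 FPKM), Lgals3 (699 ± 52.2), Cd63 (607 ± 93.0), Cd9 (503 ± 46.9) and Gpnmb (419 ± 142), and the mean ± SD ranges of neighbours in this order overlapped. Gpnmb, which was at 5.35 ± 2.28 FPKM in Sham, had joined the most abundant members. In the SCI + SCS cord Lgals3 led (565 ± 56.9 FPKM), followed by Cd9 (493 ± 18.8), Lyz2 (458 ± 23.3) and Cd63 (450 ± 33.3). The lowest of the members tested in the SCI cord were Cd163 (1.67 ± 0.63 FPKM), Ms4a7 (1.69 ± 0.75) and Msr1 (1.93 ± 0.70).

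Among receptors for dead cells and microbial patterns, 5 of 6 members were called higher in SCI than in Sham and all but Mertk were called higher in SCI + SCS than in Sham. Trem2, a lipid-sensing receptor of microglia and macrophages, was at 9.16, 10.98 and 14.9 CPM in Sham, 230, 198 and 179 CPM in SCI, and 125, 147 and 132 CPM in SCI + SCS libraries. The 3 groups did not overlap, and the SCI + SCS libraries lay between the others. Trem2 was 17.1-fold higher in SCI than in Sham (log2FC 4.10 ± 0.22, SE; edgeR adjusted p = 0.000783), and 1.49-fold lower in SCI + SCS than in SCI (log2FC -0.58 ± 0.12; adjusted p = 0.0826). Tyrobp, the signalling adaptor of TREM2, followed the same order, with 12.04, 14.4 and 25.5 CPM in Sham, 247, 225 and 214 CPM in SCI, and 159, 166 and 152 CPM in SCI + SCS libraries. Its log2FC was 3.71 ± 0.30 for SCI against Sham (edgeR adjusted p = 0.00106) and -0.52 ± 0.09 for SCI + SCS against SCI (adjusted p = 0.0719). The SCI + SCS libraries were again between the other groups with no overlap.

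Clec7a encodes dectin-1, a receptor for fungal glucans that disease-associated microglia express. It was at 0.33, 1.52 and 3.82 CPM in Sham, 45.4, 68.4 and 52.7 CPM in SCI, and 38.02, 46.1 and 36.9 CPM in SCI + SCS libraries. Both injured groups were far above Sham, and 1 SCI + SCS library overlapped the SCI range. The log2FC was 4.85 ± 0.78 for SCI against Sham (edgeR adjusted p = 0.00381) and -0.45 for SCI + SCS against SCI (95% interval -0.84 to -0.06; adjusted p = 0.161). Cd14, the co-receptor for lipopolysaccharide, had a log2FC of 2.61 in SCI against Sham and of -0.62 in SCI + SCS against SCI. The 2 TAM receptors, which bind phosphatidylserine on dying cells through bridging proteins, behaved differently. Axl was called in SCI against Sham with a log2FC of 1.57, whereas Mertk was not (0.48; 95% interval 0.06 to 0.90). Neither passed an unadjusted p of 0.05 in SCI + SCS against SCI, where the log2FC of Axl was -0.22 (95% interval -0.48 to 0.05) and that of Mertk -0.05 (-0.33 to 0.23).

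**Figure D3:**
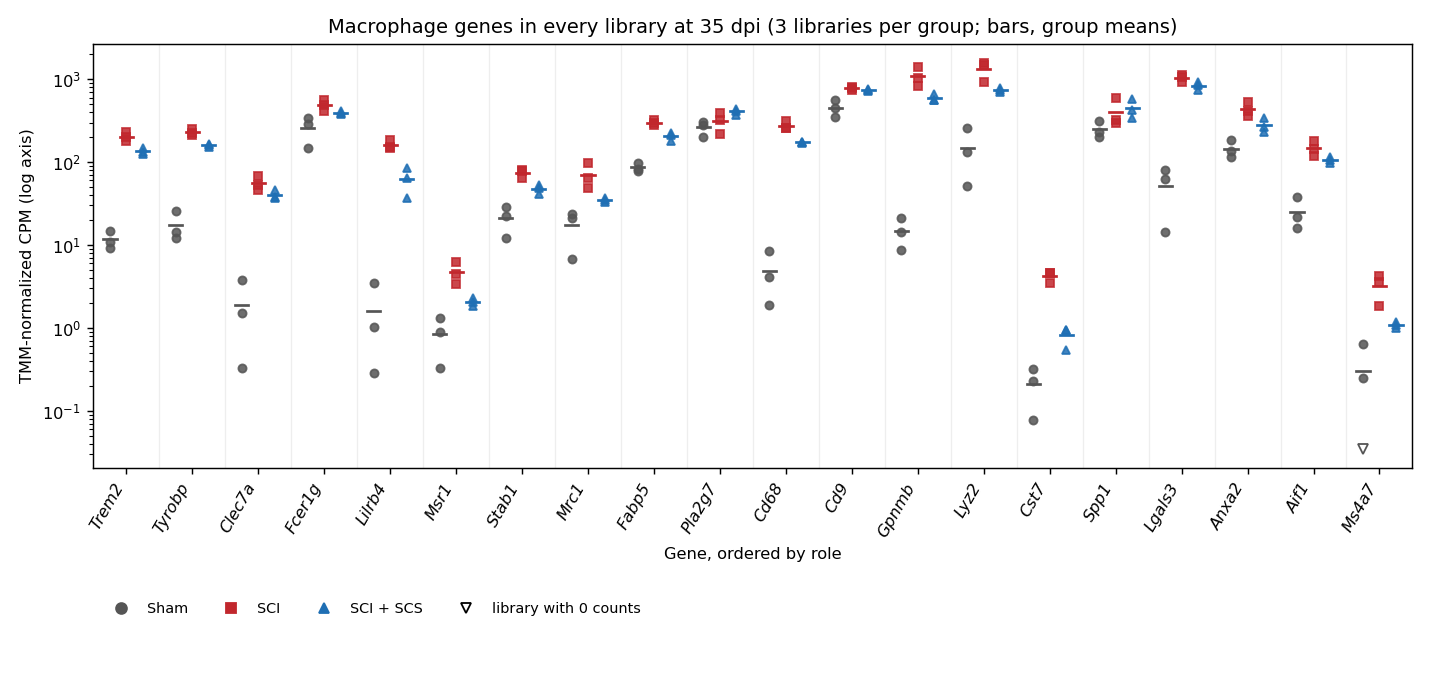
TMM-normalized CPM (log axis) of the 20 members chosen by rule, ordered by role, with 3 libraries a group and a bar at the group mean; an open triangle marks the Sham library with 0 counts of Ms4a7. In Trem2, Tyrobp, Lilrb4, Gpnmb, Cd68 and Cst7 the SCI + SCS libraries lie between Sham and SCI with no overlap, and in Pla2g7, Cd9 and Spp1 the injured groups overlap.

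Of the Fc receptor genes and the inhibitory receptor grouped with them, 4 of 5 were called higher in SCI than in Sham. Lilrb4, an inhibitory immunoglobulin-like receptor of myeloid cells, had the largest rise of the list. It was at 0.28, 1.02 and 3.47 CPM in Sham, 149, 153 and 185 CPM in SCI, and 84.3, 64.1 and 37.3 CPM in SCI + SCS libraries. All SCI + SCS libraries were below all SCI libraries and far above Sham, and they varied more among themselves than the SCI libraries did. The change was 99.8-fold for SCI against Sham (log2FC 6.64 ± 0.87; edgeR adjusted p = 0.00223), or 237-fold without Sham replicate 3, and 2.61-fold downwards for SCI + SCS against SCI (log2FC -1.38 ± 0.28; adjusted p = 0.0793).

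Fcer1g encodes the common gamma chain through which activating Fc receptors signal. Its main row was at 342, 289 and 147 CPM in Sham, 558, 485 and 414 CPM in SCI, and 386, 409 and 377 CPM in SCI + SCS libraries. The order of the groups was that of Trem2, with a much smaller distance between them, and it was not called in either comparison with Sham (log2FC 0.88 and 0.59), though limma on FPKM called it in both, and edgeR called it in SCI against Sham without Sham replicate 1. Its values are uncertain, since a second row under the same symbol and identifier held up to 13206 counts in a library (Sham replicate 3) and how the counts were split is not stated. Fcgr2b, the inhibitory Fc receptor, and Fcgr1a, the high-affinity activating one, were called in both injured groups against Sham, with log2FC of 2.60 and 2.07 in SCI and of 2.31 and 1.502 in SCI + SCS. Fcgr3a, a low-affinity activating receptor, was called in SCI (log2FC 1.43; edgeR adjusted p = 0.0475) and not in SCI + SCS (log2FC 0.96; adjusted p = 0.161), though the difference between the injured groups did not pass either (log2FC -0.47; 95% interval -0.96 to 0.01).

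Scavenger receptors, which bind modified lipoproteins, apoptotic cells and glycans, showed some of the larger distances between the injured groups. Msr1, the class A scavenger receptor, was at 0.33, 0.89 and 1.30 CPM in Sham, 3.40, 6.16 and 4.43 CPM in SCI, and 2.06, 2.28 and 1.85 CPM in SCI + SCS libraries. Levels were low throughout, and the 3 groups did not overlap. The log2FC was 2.45 ± 0.51 in SCI against Sham (edgeR adjusted p = 0.00877) and -1.16 ± 0.26 in SCI + SCS against SCI (adjusted p = 0.0851). Mrc1, the mannose receptor of border-associated and repair-type macrophages, was at 6.80, 21.3 and 23.8 CPM in Sham, 48.5, 64.7 and 97.1 CPM in SCI, and 36.6, 35.4 and 33.0 CPM in SCI + SCS libraries. It was called higher in SCI than in Sham (log2FC 2.003 ± 0.49; edgeR adjusted p = 0.0152) and not in SCI + SCS (log2FC 1.02; adjusted p = 0.104), where DESeq2 called it (adjusted p = 0.0357). Between the injured groups its log2FC was -0.99 ± 0.23 (adjusted p = 0.0895), with no overlap.

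Stab1, which takes up phosphatidylserine-bearing cells and modified lipoproteins, was at 11.996, 22.6 and 29.1 CPM in Sham, 63.6, 77.4 and 81.0 CPM in SCI, and 52.5, 48.7 and 40.7 CPM in SCI + SCS libraries. It was called in both injured groups against Sham, and its log2FC in SCI + SCS against SCI was -0.64 ± 0.13 (edgeR adjusted p = 0.0817). Cd163, the haemoglobin-haptoglobin receptor, was not called in any comparison. Its log2FC was 0.64 in SCI against Sham (95% interval -0.38 to 1.65) and -0.11 in SCI + SCS against SCI (-0.70 to 0.47), with overlapping groups. Border-associated macrophage genes, a list that holds Cd163 and Mrc1, summed to 58.0 to 86.2 CPM in Sham, 150 to 232 CPM in SCI and 108 to 132 CPM in SCI + SCS libraries.

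The lipid-handling members did not move as a block. Fabp5, a fatty acid carrier, was at 78.6, 82.6 and 98.6 CPM in Sham, 319, 294 and 278 CPM in SCI, and 225, 178 and 213 CPM in SCI + SCS libraries, again in 3 separate ranges. Its log2FC was 1.76 ± 0.12 in SCI against Sham (edgeR adjusted p = 0.000976) and -0.52 ± 0.12 in SCI + SCS against SCI (adjusted p = 0.0854). Tspo, a cholesterol-binding mitochondrial membrane protein used to image activated microglia, was called in both injured groups (log2FC 2.58 and 2.14) and was lower in SCI + SCS than in SCI at an unadjusted p under 0.05 (log2FC -0.45).

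Plin2, which coats lipid droplets, is given by library although its values were seen first. It was at 27.3, 34.4 and 36.8 CPM in Sham, 110, 107 and 79.2 CPM in SCI, and 85.6, 112 and 96.4 CPM in SCI + SCS libraries. The injured groups overlapped, and both were above Sham by almost the same amount (log2FC 1.58 in each; edgeR adjusted p = 0.00162 and 0.00336). The log2FC of Plin2 in SCI + SCS against SCI was -0.0052, with a 95% interval from -0.38 to 0.37. Pla2g7, a secreted lipase of platelet-activating factor and oxidised phospholipids, was at 203, 276 and 308 CPM in Sham, 391, 321 and 220 CPM in SCI, and 372, 418 and 434 CPM in SCI + SCS libraries. Its group mean was highest in SCI + SCS, whose libraries overlapped those of SCI, with a log2FC of 0.40 against SCI (95% interval -0.08 to 0.88; edgeR adjusted p = 0.274) and of 0.64 against Sham (adjusted p = 0.027, under the fold threshold). Astrocyte genes summed to 3642 to 7190 CPM in Sham, 5826 to 9031 CPM in SCI and 8920 to 11646 CPM in SCI + SCS libraries. The part of astrocytes and other cells in the level of Pla2g7 was not tested.

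Nceh1, a hydrolase that frees cholesterol from its esters, was the member that fell after injury, and its library values too were chosen after they were seen. It was at 68.2, 59.6 and 52.4 CPM in Sham, 27.9, 31.0 and 24.0 CPM in SCI, and 33.5, 39.0 and 40.6 CPM in SCI + SCS libraries. The groups did not overlap, and SCI + SCS lay between. Neuronal genes were at 3706 to 8014 CPM in Sham, 462 to 1544 CPM in SCI and 1479 to 2605 CPM in SCI + SCS libraries. The part of neurons and other cells in the level of Nceh1 was not tested. EdgeR called Nceh1 lower in SCI than in Sham, but limma on log2(FPKM + 1) did not. Nceh1 was 2.201-fold lower in SCI than in Sham (log2FC -1.14 ± 0.15; edgeR adjusted p = 0.00224), and its log2FC in SCI + SCS against SCI was 0.46 ± 0.12 (adjusted p = 0.104), the 1 member higher at an unadjusted p under 0.05.

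The lysosomal, endosomal and tetraspanin members had the highest median fold change of the 7 role groups in SCI against Sham (3.72 on the log2 scale), and 5 of 6 were called there. Their mean levels in the SCI cord ran from 2.81 FPKM (Cst7) to 804 FPKM (Lyz2). Gpnmb, a glycoprotein of lysosomes and melanosomes, was at 8.69, 14.2 and 21.4 CPM in Sham, 832, 1420 and 1027 CPM in SCI, and 556, 661 and 553 CPM in SCI + SCS libraries. The 3 groups did not overlap. It was 73.3-fold higher in SCI than in Sham (log2FC 6.20 ± 0.43; edgeR adjusted p = 0.000976), 40.1-fold higher in SCI + SCS than in Sham, and 1.84-fold lower in SCI + SCS than in SCI (log2FC -0.88 ± 0.20; adjusted p = 0.088). Cd68, the lysosomal glycoprotein that serves as the usual stain for phagocytic macrophages, was at 1.91, 4.06 and 8.55 CPM in Sham, 257, 309 and 260 CPM in SCI, and 177, 168 and 173 CPM in SCI + SCS libraries. The SCI + SCS libraries lay close together, below all SCI libraries. Its log2FC was 5.81 ± 0.57 in SCI against Sham (edgeR adjusted p = 0.00137) and -0.66 ± 0.10 in SCI + SCS against SCI (adjusted p = 0.0719).

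Lyz2, the lysozyme of macrophages, was at 50.9, 131 and 258 CPM in Sham, 917, 1468 and 1557 CPM in SCI, and 740, 705 and 775 CPM in SCI + SCS libraries. Its log2FC was 3.15 ± 0.58 and -0.82 ± 0.20 in the comparison with Sham and in that between the injured groups (edgeR adjusted p = 0.00597 and 0.0927). Cst7, an inhibitor of lysosomal cathepsins that is a marker of disease-associated microglia, was the member with the largest distance between the injured groups. It was at 0.078, 0.32 and 0.23 CPM in Sham, 4.54, 4.64 and 3.44 CPM in SCI, and 0.95, 0.54 and 0.95 CPM in SCI + SCS libraries. The groups did not overlap, and the SCI + SCS libraries were nearer to Sham than to SCI. Cst7 was 5.12-fold lower in SCI + SCS than in SCI (log2FC -2.36 ± 0.29, 95% interval -3.05 to -1.67; edgeR adjusted p = 0.0719). Without SCI + SCS replicate 1 it was called by edgeR. Against Sham its log2FC was 4.28 in SCI and 1.94 in SCI + SCS.

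Of the tetraspanins, Cd63, which marks late endosomes and exosomes, was called in both injured groups (log2FC 2.12 and 1.67) and had a log2FC of -0.46 in SCI + SCS against SCI. Cd9, which oligodendrocytes also express, was at 345, 452 and 554 CPM in Sham, 778, 808 and 746 CPM in SCI, and 772, 733 and 720 CPM in SCI + SCS libraries. The injured groups overlapped, and both were above Sham by less than the fold threshold (log2FC 0.77 and 0.72; edgeR adjusted p = 0.0126 and 0.022). Between the injured groups the log2FC of Cd9 was -0.06 (95% interval -0.27 to 0.15). Oligodendrocyte genes summed to 57991 to 82230 CPM in Sham, 17160 to 32617 CPM in SCI and 30230 to 35864 CPM in SCI + SCS libraries.

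Secreted and matrix factors were the most uneven group, with 2 of 5 called higher in SCI than in Sham and the same number in SCI + SCS. Lgals3, galectin-3, a galactoside-binding lectin of phagocytes, was at 14.2, 62.6 and 79.3 CPM in Sham, 1133, 1071 and 930 CPM in SCI, and 745, 848 and 913 CPM in SCI + SCS libraries. The injured groups were narrowly separate, at 913 and 930 CPM at their nearest. Its log2FC was 4.32 ± 0.62 in SCI against Sham (edgeR adjusted p = 0.00287), 4.01 ± 0.61 in SCI + SCS against Sham (adjusted p = 0.00764) and -0.31 ± 0.13 between the injured groups (adjusted p = 0.189). Spp1, osteopontin, was at 314, 232 and 201 CPM in Sham, 293, 593 and 325 CPM in SCI, and 338, 573 and 429 CPM in SCI + SCS libraries. The SCI range reached into the Sham range and covered the whole SCI + SCS range. It was not called in any comparison, with a log2FC of 0.68 in SCI against Sham (95% interval -0.07 to 1.43) and of 0.16 in SCI + SCS against SCI (-0.57 to 0.88). Every SCI + SCS library was above every Sham library, by less than the fold threshold (log2FC 0.85; 95% interval 0.26 to 1.43; edgeR adjusted p = 0.0395), and Spp1 was called there without Sham replicate 1.

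Plau, the urokinase-type plasminogen activator, was called in both injured groups (log2FC 3.78 and 2.99) and was lower in SCI + SCS than in SCI at an unadjusted p under 0.05 (log2FC -0.80). Igf1, a growth factor secreted by reparative macrophages among other cells, was not called against Sham in SCI (log2FC 1.28; 95% interval -0.10 to 2.65) or in SCI + SCS (1.41; 0.005 to 2.81), although every library of both groups was above every Sham library. DESeq2 called Igf1 in both (adjusted p = 0.0332 and 0.0249), as did edgeR without Sham replicate 3. Arg1, arginase-1, had overlapping groups throughout and a log2FC of 0.07 in SCI against Sham (95% interval -0.87 to 1.01).

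The 4 cytoskeletal and membrane members were called in SCI against Sham and were each lower in SCI + SCS than in SCI at an unadjusted p under 0.05, with no overlap. Anxa2, an annexin that links membranes to actin and is found in many cell types, was at 117, 183 and 136 CPM in Sham, 361, 418 and 537 CPM in SCI, and 342, 232 and 267 CPM in SCI + SCS libraries. Its log2FC was 1.58 ± 0.22 in SCI against Sham (edgeR adjusted p = 0.00258) and -0.64 ± 0.19 in SCI + SCS against SCI (adjusted p = 0.12). Aif1, which encodes the microglial and macrophage marker IBA1, was at 16.3, 21.6 and 37.6 CPM in Sham, 180, 145 and 117 CPM in SCI, and 105, 116 and 97.4 CPM in SCI + SCS libraries. The injured groups were separated by less than 1 CPM at their nearest (116.4 and 116.9 CPM). The log2FC of Aif1 was 2.54 ± 0.33 in SCI against Sham (edgeR adjusted p = 0.00227) and -0.46 ± 0.16 in SCI + SCS against SCI (adjusted p = 0.154).

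Ms4a7, a membrane protein of blood-derived and border-associated macrophages, was among the rarest members tested. It was at 0, 0.25 and 0.64 CPM in Sham, 1.84, 4.21 and 3.60 CPM in SCI, and 0.996, 1.19 and 1.10 CPM in SCI + SCS libraries. The 3 groups did not overlap. The log2FC was 3.39 ± 1.04 in SCI against Sham (edgeR adjusted p = 0.0343) and -1.54 ± 0.34 in SCI + SCS against SCI (adjusted p = 0.0833), and it was not called in SCI + SCS against Sham (1.85 ± 0.99; adjusted p = 0.187). Capg, an actin-capping protein of macrophages, was called against Sham in SCI and in SCI + SCS (log2FC 2.09 and 1.38), and had a log2FC of -0.72 between the injured groups.

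Because general myeloid genes also rose after injury, each member was set against the summed CPM of the 6 myeloid reference genes in the same library. This ratio is a description with no test, and was formed for the 34 members with a count in every library. Csf1r was the largest part of the myeloid sum, with means of 124, 364 and 346 CPM in Sham, SCI and SCI + SCS. Laptm5 was the next, with means of 54.7, 212 and 169 CPM. The ratio was not formed without Csf1r, so the counts below hold for this sum only. In SCI libraries the ratio was above that of every Sham library in 14 members, below it in 8 and overlapping in 12. Of all 17256 genes with a count in every library, 1.56% were above and 85.3% below in the same way. The mean log2 ratio of Gpnmb was -3.97 ± 0.31 (SD, n = 3) in Sham and 0.39 ± 0.38 in SCI, and that of Cd68 was -5.74 ± 0.73 and -1.57 ± 0.16. The ratio of Trem2 was nearly the same in the Sham libraries (-4.25 ± 0.0081) and was -2.02 ± 0.16 in SCI. The 8 lower members were Axl, Mertk, Plin2, Nceh1, Pla2g7, Cd9, Spp1 and Arg1, several of which other cells of the cord also express.

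In SCI + SCS against SCI libraries the ratio to the myeloid genes was lower without overlap in 10 members (Trem2, Tyrobp, Lilrb4, Msr1, Mrc1, Cd68, Gpnmb, Cst7, Plau and Aif1), higher in 3 (Plin2, Nceh1 and Pla2g7) and overlapping in 21. Of all genes with a count in every library, 2.01% were lower and 24.3% higher in this way. The difference in mean log2 ratio was -2.17 for Cst7, -1.23 for Lilrb4, -0.90 for Msr1, -0.62 for Gpnmb, -0.43 for Cd68 and -0.35 for Trem2. For Aif1 the nearest libraries of the injured groups were almost level, at log2 ratios of -2.649 and -2.654. The difference was 0.23 for Plin2, 0.66 for Pla2g7 and 0.69 for Nceh1. For Lgals3 (-0.09) and Fcer1g (-0.07) the ratios of the injured groups overlapped.

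**Figure D4:**
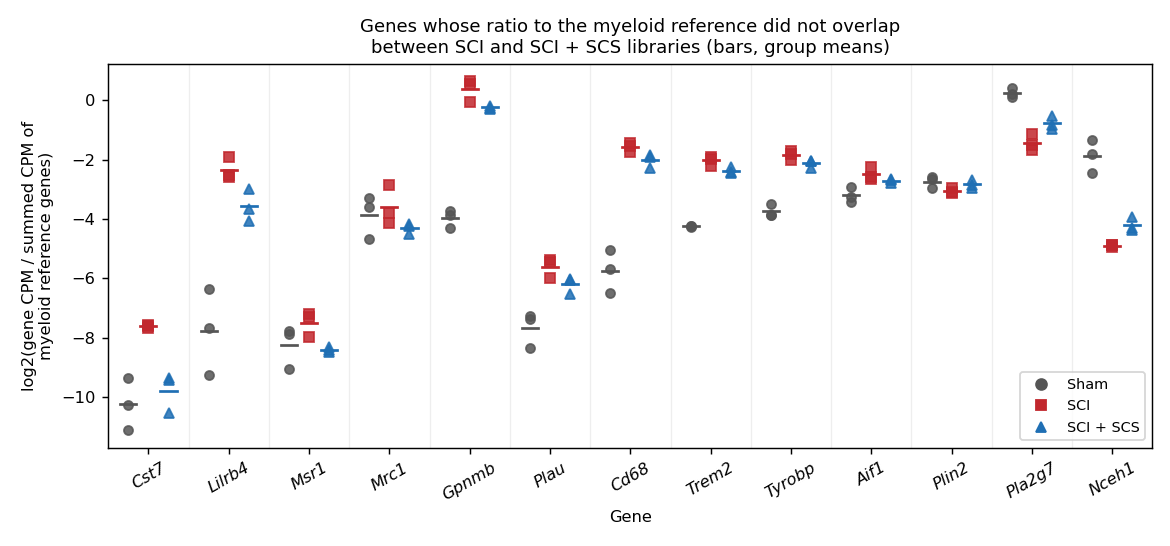
Log2 ratio of a member's CPM to the summed CPM of 6 myeloid reference genes in each library, for the 13 members whose SCI and SCI + SCS libraries did not overlap, with bars at group means. In 10 members the SCI + SCS libraries lie below the SCI libraries (mean difference of -2.17 in Cst7), and in Plin2, Pla2g7 and Nceh1 they lie above.

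Other genes of the same pathways, from 3 lists of engulfment signalling, lipid clearance and lysosomal degradation, are given by count. These lists too were chosen with earlier results of these data known, so their counts are a description. Of 53 genes listed, 52 had a row and were tested. In SCI against Sham 29 were called higher (13.4% of all genes) and 3 lower (Megf10, Elmo1 and Atp6v1b2; 13.6% of all genes), with 9 and 2 in engulfment signalling, 11 and 0 in lipid clearance and 9 and 1 in lysosomal degradation. The median log2FC over the 52 was 1.398. In SCI + SCS against Sham 25 were called higher (6.28% of all genes) and 1 lower (Megf10; 5.44% of all genes). In SCI + SCS against SCI none was called by edgeR, while 19 were lower (10.9% of all genes) and 2 were higher (Megf10 and Elmo1; 13.3% of all genes) at an unadjusted p under 0.05, and the median was -0.21.

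Of these genes, Cd5l, a lipid-binding protein secreted by macrophages, had 0 counts in all Sham libraries, 1.86, 2.89 and 1.69 CPM in SCI, and 0.52, 0.68 and 0.28 CPM in SCI + SCS libraries. Set against 3 counts in a Sham library, it was at least 45.8-fold higher in SCI and at least 10.5-fold higher in SCI + SCS. Atp6v0d2, a subunit of the proton pump that acidifies lysosomes, also had 0 counts in Sham, and it was at 8.84, 8.44 and 7.55 CPM in SCI and 3.59, 1.83 and 0.63 CPM in SCI + SCS libraries. Against the same floor it was at least 176-fold higher in SCI and at least 42.9-fold higher in SCI + SCS, or at least 26.1-fold without SCI + SCS replicate 1. Between the injured groups the log2FC was -2.11 ± 0.40 for Cd5l (edgeR adjusted p = 0.0774) and -2.03 ± 0.54 for Atp6v0d2 (adjusted p = 0.101).

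Fabp4, a fatty acid carrier of adipocytes and foamy macrophages, was at 0.36, 0.41 and 0.17 CPM in Sham, 23.7, 23.1 and 33.9 CPM in SCI, and 12.1, 6.57 and 6.46 CPM in SCI + SCS libraries. The groups did not overlap, and the log2FC of Fabp4 in SCI + SCS against SCI was -1.67 ± 0.29 (edgeR adjusted p = 0.0719). Fabp4 is also 1 of the 7 adipocyte genes and Atp6v0d2 1 of the 6 osteoclast genes listed. The osteoclast genes summed to 7.70 to 28.3 CPM in Sham, 155 to 250 CPM in SCI and 71.8 to 113 CPM in SCI + SCS libraries. Most of this was Ctsk (means of 15.7, 185 and 77.7 CPM), while Dcstamp, Ocstamp and Calcr were below 1 CPM in every library, and the part of such cells in these values was not tested. Among the genes that fell, Megf10, an engulfment receptor of astrocytes, had a log2FC of -1.95 ± 0.22 in SCI against Sham and of 0.71 ± 0.23 in SCI + SCS against SCI. Elmo1, which couples engulfment receptors to Rac, had -1.27 ± 0.16 and 0.54 ± 0.15, and Atp6v1b2, another proton pump subunit, had -1.07 ± 0.21 and 0.25 ± 0.13.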

How the data were processed

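Sequencing reads of poly(A)-enriched RNA were trimmed with fastp 0.23.2, and HISAT2 2.2.1 and the mRatBN7.2 build are named in the submitters' processing notes; the counting program and annotation are not given in the sources used here. The authors deposited raw counts per gene and FPKM (counts scaled by gene length and library size, by the authors). Library totals were 62844376 to 88358570 counts; a count of 3 (0.0341 to 0.0470 CPM after TMM scaling) was taken as the floor, which covers counting error only. Genes passing edgeR's filterByExpr were fitted with its quasi-likelihood test (edgeR 4.0.16, R 4.3.3) with TMM scaling on the 6 libraries compared, and p-values were Benjamini-Hochberg adjusted over all genes tested. Standard errors come from the F statistic and intervals are at 95%. DESeq2 1.42.0 and limma 3.58.1, the latter on log2(FPKM + 1) or log2(FPKM + 0.1) (mean FPKM over 0.1 or equal to it), were alternatives; fold changes there are on that scale. The main edgeR fit, DESeq2 and limma with a pseudocount of 1 were tried on simulated counts with a single fixed dispersion. The other alternatives were not, and the outcome is not given here.

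Per-library values are given for the 2 members of each role group with the highest mean FPKM and the 5 with the largest change in each comparison, 20 in all, and for Plin2 and Nceh1, chosen after their values were seen. Up to 3 pathway genes per direction were named. The members and lists were chosen with earlier results of these data known. Mrc1 and Fcer1g stood on more than 1 row. Some items of the lists are not reported here and were left out of every sum and count.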

Additional observations from a re-analysis of the deposited data

How the results depend on the processing

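With 3 libraries a group and bulk tissue, small differences and the cell type of origin lie beyond these data. For members called, leaving out 1 library at a time gave 24 to 28 in SCI against Sham, 0 to 1 in SCI + SCS against SCI (1 without SCI + SCS replicate 1) and 17 to 23 in SCI + SCS against Sham. In SCI + SCS against SCI, where edgeR called 0, DESeq2 called 4, limma on FPKM called 1 with either pseudocount, and an unadjusted p with the fold threshold gave 4; the cause was not tested. With SCI replicates 1 and 3 left out, added after seeing the data, 10 members were called in SCI against Sham, with fewer libraries; in SCI + SCS against SCI it called 0. The same replicate number does not mark a shared animal, and correlations of same-numbered libraries were -0.33 to 0.24. Differently numbered libraries were not compared, so these values cannot show whether the numbers paired the samples in another way. With a replicate block, 26, 0 and 12 members were called in SCI against Sham, SCI + SCS against SCI and SCI + SCS against Sham. The shares of all genes called under these alternatives are not given here.

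Single members turned direction where the change was near 0. In SCI against Sham, Arg1 was at -0.051 with the replicate block, -0.00056 and -0.026 in limma, and -0.44 to 0.35 with 1 library left out. In SCI + SCS against SCI, Mertk was at 0.0043 and 0.0053 in limma, 0.018 without SCI replicates 1 and 3, and -0.15 to 0.034 with 1 library left out. Plin2 was at 0.0021 with the replicate block, 0.024 in both limma fits and -0.15 to 0.084 with 1 library left out. Cd163 was at 0.18 without SCI replicates 1 and 3 and -0.26 to 0.18 with 1 library left out. Spp1 was at -0.41 and Igf1 at -0.11 without SCI replicates 1 and 3, and Spp1 at -0.064 to 0.53 with 1 library left out. Of all member values under the alternatives, 1745 kept their direction and side of the threshold, 59 lost a call, 25 gained one and 22 reversed.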
